A study of Homo sapiens with 14 samples.

Results

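The zinc finger genes of human chromosome 19 were examined by chromatin immunoprecipitation and sequencing (ChIP-seq) of RNA polymerase II (RNAPII) in BJ hTERT cells, a foreskin fibroblast line immortalised with telomerase. The set held every nuclear gene of the deposited table on chromosome 19 whose position matched a protein-coding RefSeq gene with a symbol of ZNF and a number. This gave 155 genes of 12411 nuclear genes, while RefSeq lists 250 such genes on the chromosome. A further 142 rows of chromosome 19 carried no symbol, and some of them may be zinc finger genes whose annotated ends differ between Ensembl and RefSeq. The rule used only chromosome, position and symbol, but it was set with earlier results of these data known. How the authors chose the genes of the table is not given in the sources used here.

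The 14 libraries were 14 groups of 1 library each. One antibody was against the N-terminal domain of RPB1, the largest RNAPII subunit, and is called total RNAPII here. The other was against RPB1 phosphorylated on serine 2 of its C-terminal repeats (Ser2), the form that marks elongating polymerase. These antibodies are those of the sample labels, which were followed, whereas the submitters' protocol text names antibodies to histones. Each antibody was applied to cells at 14 h with no treatment named, and, with DMSO (the solvent) or ATRi, at 3 later times (16 h, 19 h, 22 h). ATRi is an inhibitor of the replication stress kinase ATR. The series concerns how ATR inhibition affects transcription during S phase. The start of the hours, the compound and any synchronisation were not given in the sources used here. All groups come from 1 established line, and a gain per cell cannot be told apart from a gain in more of the cells.

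Most zinc finger genes of chromosome 19 encode proteins with tandem DNA-binding fingers behind a KRAB domain. The KRAB domain recruits TRIM28, which brings the histone methyltransferase SETDB1 and heterochromatin proteins of the CBX family, and many targets are retrotransposons. The genes arose by repeated duplication and lie in clusters along the chromosome. Their bodies carry both RNAPII and the repressive mark H3K9me3 in many cell types.

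The table gives RPM, that is reads per 1000000 of a library that fell anywhere between a gene's ends. RPM are not scaled by length, so genes are compared here by read density, RPM per kb. Library totals were 17181179 to 62368915 reads. The median zinc finger gene of the set held 186 to 896 reads per library, while a count of 3 reads equals 0.0481 to 0.175 RPM. The share of library reads that fell in listed genes was 35.8% to 72.0% and was highest in the 4 libraries of 19 h (63.5% to 72.0%). The zinc finger genes held 0.488% to 0.565% of the reads in genes. No group had a replicate, so hours or treatments served as blocks, and p-values measure only the spread between these libraries. All 10 fibroblast markers on the list were measured, from 0.930 RPM per kb for FAP to 18.6 for VIM. Of 20 markers of keratinocytes, melanocytes, endothelium and blood, 15 were not among the measured genes. The 5 others lay at 0.143 (KRT14), 0.203 (VWF), 0.231 (TEK), 0.259 (MITF) and 0.620 (DSP) RPM per kb.

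The promoters of these genes are shown first because 33 of them hold a sequence match that the choice of genes did not use, while 108 lack it. Sequences are from RefSeq (GRCh38.p14, 250 bases before to 50 after the start of each gene), and 141 of the 155 genes had one on the same strand. The letters CCGGAAGT, a site of ETS family activators, were searched on both strands. They stood in 33 of the 141 promoters (23.4%), against 9.41% of the 8600 promoters of named genes in the table and 4.44% of all 27305 promoters. ZNF genes of other chromosomes had the match in 30 of 214 promoters (14.0%). Of the 33 genes with a match, 27 had one whose first base lay from 40 bases before to 10 bases after the start, and 27 of all 36 matches read ACTTCCGG on the gene strand. The match was concentrated at the end of the long arm. From ZNF628 to ZNF324 (chr19:55476332-58475436) it stood in 21 of 39 promoters (53.8%), against 12 of 102 elsewhere (11.8%, beside the 9.41% of named genes in the table) and 9 of 50 RefSeq promoters of genes with other symbols within that interval (18.0%). This split by cluster was looked at after the matches had been seen. The 214 and the 50 promoters were taken from all of RefSeq, whereas the 141 belong to protein-coding genes of the table.

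The following stretches run from 120 bases before to 30 after the start, 5′ to 3′ on the gene strand, with the match in capitals. They are the named genes with a match that had the 3 highest and the 3 lowest read densities.
ZNF865: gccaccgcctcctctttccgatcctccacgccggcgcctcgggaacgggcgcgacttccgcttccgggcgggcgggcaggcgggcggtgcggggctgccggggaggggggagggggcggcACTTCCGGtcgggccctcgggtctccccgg
ZNF460: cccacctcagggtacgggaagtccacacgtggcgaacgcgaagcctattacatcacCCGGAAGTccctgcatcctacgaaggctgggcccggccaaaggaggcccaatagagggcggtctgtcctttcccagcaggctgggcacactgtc
ZNF274: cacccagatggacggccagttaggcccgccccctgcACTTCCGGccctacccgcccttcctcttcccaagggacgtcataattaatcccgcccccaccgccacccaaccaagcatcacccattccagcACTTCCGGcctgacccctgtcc
ZNF568: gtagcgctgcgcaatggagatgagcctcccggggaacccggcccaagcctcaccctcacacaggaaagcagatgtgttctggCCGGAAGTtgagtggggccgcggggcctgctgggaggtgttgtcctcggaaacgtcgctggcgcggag
ZNF470: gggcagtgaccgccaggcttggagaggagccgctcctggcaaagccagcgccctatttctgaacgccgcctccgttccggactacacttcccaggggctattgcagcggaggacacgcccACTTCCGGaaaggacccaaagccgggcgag
ZNF578: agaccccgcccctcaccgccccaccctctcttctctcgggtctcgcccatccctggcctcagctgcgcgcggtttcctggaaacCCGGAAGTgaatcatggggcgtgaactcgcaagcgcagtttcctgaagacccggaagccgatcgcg

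These windows lie on the plus strand at chr19:55605527-55605676 (ZNF865), chr19:57279862-57280011 (ZNF460), chr19:58182941-58183090 (ZNF274), chr19:36916212-36916361 (ZNF568), chr19:56567348-56567497 (ZNF470) and chr19:52453433-52453582 (ZNF578). ZNF274 holds the match in both its upper and its lower part. Median read density was 0.618 RPM per kb in the 33 genes with the match and 0.635 in the 108 without it, given as a description with no test. The E2F sites TTTCCCGC, TTTGGCGC, TTTCGCGC and TTTGCCGC were searched in the same way, since E2F factors drive S phase genes. At least 1 of them stood in 9 promoters of the set (6.38%), against 5.62% of named genes in the table. The YY1 core AAGATGGCG stood in 7 (4.96%), against 4.34%. No ETS match overlapped an E2F or YY1 match. The median promoter of the set had 22 CG pairs and 61.0% G and C, against 27 and 65.7% for named genes in the table. A match describes letters in this window and says nothing of binding.

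The 155 genes were occupied at low to middling density. Mean density over the 14 libraries ran from 0.231 RPM per kb (ZNF578) to 2.95 (ZNF581). All genes were divided into 4 classes of equal size by density. The lowest class held 42 of the 155, the second 64, the third 41 and the highest 8. The median zinc finger gene lay below the median of all genes in each of the 14 libraries, for example 0.646 against 0.733 RPM per kb in total RNAPII at 16 h with DMSO and 0.868 against 1.16 at 19 h with DMSO. Other named genes of chromosome 19 stood higher, at 1.01 and 1.69 RPM per kb in the same libraries. ZNF genes of other chromosomes were closer, at 0.672 and 0.906. Of the 155 genes, 0 lay at or below KRT14, VWF or TEK, and 5 lay at or below MITF (0.259 RPM per kb). DSP, a desmosome gene used here as a marker of another cell type, had 0.620 RPM per kb, and 79 genes lay at or below it. DSP itself stood at percentile 38.8 of density over genes, so it is no measure of an unoccupied gene here.

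**Figure D1:**
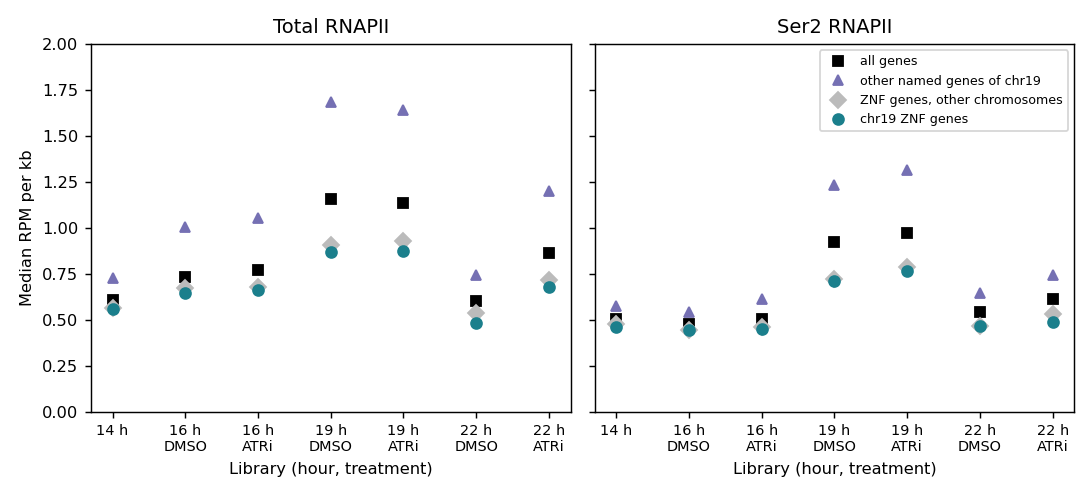
Median RPM per kb (y axis, linear from 0) in each library (x axis, hour and treatment) for total RNAPII (left) and Ser2 (right). Circles are the 155 zinc finger genes of chromosome 19, squares all nuclear genes, triangles other named genes of chromosome 19 and diamonds ZNF genes of other chromosomes. The circles lie below the squares in all 14 libraries, and all sets stand highest at 19 h.

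Genes ran from 3.12 kb (ZNF524) to 122 kb (ZNF420), with a median span of 22.6 kb, and 92 of 155 shared under 5% of their span with another gene. Reads in a shared stretch cannot be given to one gene, because ChIP-seq has no strand. Near-identical members may also share reads, and how such reads were placed is not given in the sources used here. Starts less than 1 Mb apart were joined into 14 position clusters. The cluster from ZNF628 to ZNF324 was the largest, with 43 genes, and it held both the highest density, 2.95 RPM per kb, and one of the lowest, 0.234 (ZNF470). Its median was 0.701 RPM per kb. Median density was 0.892 RPM per kb in the 12 genes from ZNF557 to ZNF562 (chr19:7069444-9675086) and 0.528 in the 24 from ZNF175 to ZNF331 (chr19:51571298-53580269). The 13 genes from ZNF101 to ZNF43 (chr19:19668796-21852125), a cluster that expanded in primates, had a median of 0.473. The 19 from ZNF565 to ZNF607 (chr19:36182060-37719790) had a median of 0.494.

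**Figure D2:**
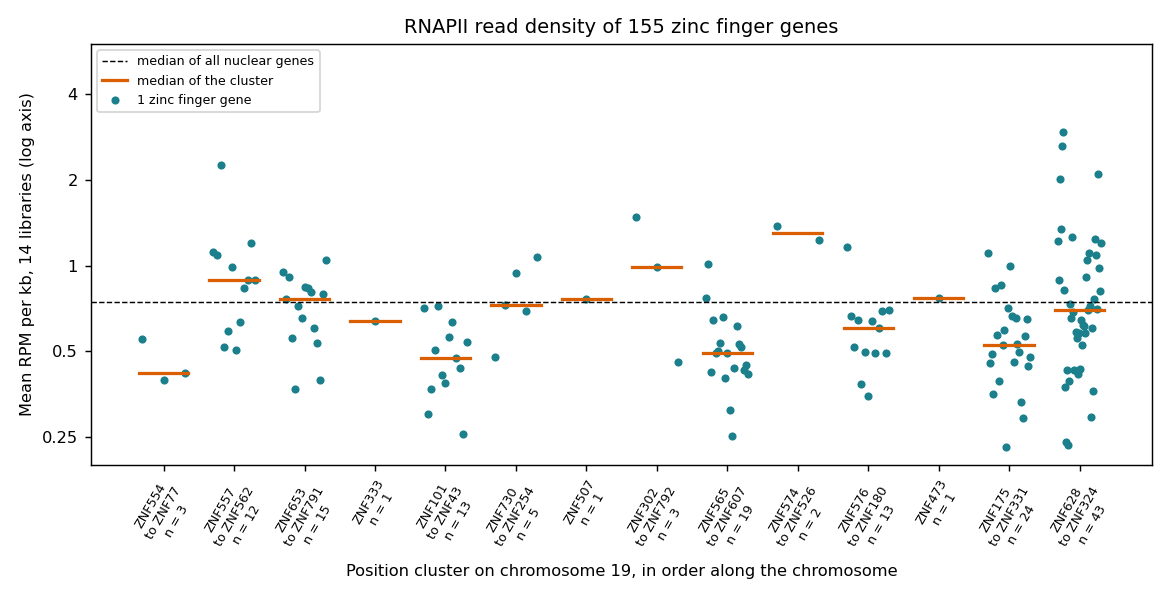
Mean RPM per kb over 14 libraries (y axis, log scale) of each of the 155 genes, grouped by position cluster in chromosomal order (x axis, with the first and last gene and n). Points are genes, bars cluster medians and the dashed line the median of all nuclear genes. The cluster from ZNF628 to ZNF324 spans 0.234 to 2.95 RPM per kb, and the medians of the clusters from ZNF101 to ZNF43 and from ZNF565 to ZNF607 lie under 0.5.

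The most densely occupied genes were short, and ZNF581, ZNF784 and ZNF524 are near neighbours. ZNF581 (ENSG00000171425, chr19:55635459-55645622, plus strand) had 3.67 ± 1.19 RPM per kb in total RNAPII and 2.24 ± 0.842 in Ser2 (SD over 7 libraries of different conditions, as for all such values here). Its whole span is shared with other genes. ZNF784 (ENSG00000179922, chr19:55620742-55624601, minus strand) shares none of its span and had 3.25 ± 1.16 and 2.03 ± 0.889. ZNF414 (2.86 ± 1.24 in total RNAPII), ZNF497 (2.60 ± 0.860) and ZNF524 (2.52 ± 1.23) followed. The spreads of these neighbours in the order overlap over conditions, and the order was not tested. The row named ZNF497 matched its RefSeq span with a Jaccard index of 0.53 and shares 60.7% of its span with other genes, so its identity is doubtful.

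At the other end stood ZNF667, ZNF470 and ZNF578, at 0.232 ± 0.0609, 0.211 ± 0.0559 and 0.226 ± 0.0394 RPM per kb in total RNAPII. The long ZNF420, known as a KRAB repressor of the p53 response, had 0.245 ± 0.0357. These 4 values overlap in their spread over conditions, and their order was not tested. Over all 14 libraries, ZNF470 and ZNF578 had 0.234 and 0.231 RPM per kb, close to TEK (0.231) and under MITF (0.259). No gene of the set lay at or below TEK.

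Several members have known roles. ZNF91, which represses SVA retrotransposons, had 0.941 RPM per kb over all libraries, and ZNF93, which acts on LINE retrotransposons, had 0.505. ZNF274, which binds the 3′ ends of other zinc finger genes and recruits SETDB1 there, stood among the denser genes with 1.24. ZNF473, a partner of the U7 complex that processes histone mRNA, had 0.767. ZNF146, made almost wholly of fingers, had 1.01, but its whole span is shared with other genes. ZNF331, an imprinted gene in human tissues, had 0.478. ZNF350, a BRCA1 partner, had 0.491, and ZNF224, a repressor of aldolase A, had 0.639. ZNF675, ZNF85 and ZNF536 were not analysed here.

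In the 19 h libraries, occupancy stood higher over most of the set. In total RNAPII, ZNF91 (ENSG00000167232, chr19:23304991-23395560, minus strand) had 69.0 RPM (14 h), then 88.2 and 91.3 (16 h, DMSO before ATRi throughout), 118 and 123 (19 h), 64.1 and 105 (22 h). In Ser2 it had 59.9 (14 h), then 55.7 and 54.4 (16 h), 113 and 124 (19 h), 57.7 and 71.1 (22 h). Both 19 h libraries of each antibody exceeded all others for this gene. Over the set, 128 of 155 genes (82.6%) were higher at 19 h than at 16 h in all 4 pairs of one antibody and treatment, beside 84.1% of all genes. The median log2 difference was 0.46 and 0.39 in total RNAPII and 0.64 and 0.70 in Ser2, against 0.58, 0.48, 0.90 and 0.88 for all genes. No test was run on 19 h against 16 h.

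Another 6 genes (3.87%) went the other way in all 4 pairs, beside 6.71% of all genes: ZNF14, ZNF420, ZNF439, ZNF470, ZNF578 and ZNF667. Their densities were 0.231 to 0.369 RPM per kb, against a median of 0.660 in the 128. ZNF667 (ENSG00000198046, chr19:56439325-56478065, minus strand) had 10.1 RPM in total RNAPII (14 h), then 10.4 and 11.9 (16 h), 6.13 and 5.93 (19 h), 10.6 and 7.81 (22 h). In Ser2 it had 9.75 (14 h), then 11.5 and 12.9 (16 h), 7.05 and 6.8 (19 h), 10.5 and 8.69 (22 h). Its 19 h values were the lowest in both antibodies. ZNF420 (ENSG00000197050, chr19:37007857-37130314, plus strand) had 34.5 and 31.0 RPM in total RNAPII (16 h), 23.7 and 26.4 (19 h), 33.5 and 26.9 (22 h). The 19 h libraries also had the highest share of reads in genes, and its part in these differences was not tested.

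Ser2 occupancy was then compared between 22 h and 16 h, taking both treatments at an hour in place of replicates. On the deposited scale, 26 of 155 genes rose (16.8%) against 39.0% of all genes tested, and ZNF730 and ZNF667 fell (1.29%) against 0.918%, by limma at a Benjamini-Hochberg adjusted p of 0.05 over all genes. The median change was 0.05 (log2) in the set and 0.21 over all genes. The set stood below all genes in both pairs, at 0.02 against 0.16 with DMSO and 0.08 against 0.25 with ATRi. It also stood below ZNF genes of other chromosomes (median 0.14, 24.1% higher), other named genes of chromosome 19 (0.26, 45.8%) and genes with other names inside its own clusters (0.13, 34.7%). With each library centred on its median gene, 3 genes rose (ZNF784, ZNF524 and ZNF865) and 27 fell (17.4%), against 10.2% and 10.5% of all genes.

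ZNF865 (ENSG00000261221, chr19:55605405-55617269, plus strand) had the lowest adjusted p of the set. In Ser2 it held 10.1 RPM (14 h), then 6.72 and 8.09 (16 h), 19.7 and 20.9 (19 h), 10.7 and 13.2 (22 h). Both 22 h values exceeded both 16 h values, and the change was 0.65 ± 0.11 (log2, SE; adjusted p = 0.000227). Its total RNAPII held 15.4 and 15.7 RPM at 16 h and 12.3 and 23.7 at 22 h, so there the 22 h libraries lay on either side. ZNF524 (ENSG00000171443, chr19:55600022-55603138, plus strand) had 2.46 and 2.3 RPM in Ser2 at 16 h and 3.92 and 4.46 at 22 h. It rose by 0.70 ± 0.13 (adjusted p = 0.000647). ZNF784 had 4.13 and 5.43 at 16 h and 6.81 and 7.89 at 22 h, and rose by 0.58 ± 0.12 (adjusted p = 0.00102). These 3 neighbours rose with centring as well, but none was called once the trend over density described below was removed (0.32, 0.31 and 0.16). ZNF574, ZNF581 and ZNF562 rose by 0.50, 0.44 and 0.45, but not with centring. Among members with known roles, ZNF274 rose by 0.27 ± 0.09, ZNF473 by 0.30 ± 0.10 and ZNF146 by 0.34 ± 0.10, beside a median of 0.21 over all genes. None of them was called with centring or with the trend removed. ZNF91 had 0.22 ± 0.09 (limma adjusted p = 0.0696).

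ZNF730 (ENSG00000183850, chr19:23075210-23147219, plus strand) fell. It held 33.4 RPM in Ser2 (14 h), then 30.1 and 31.8 (16 h), 36.6 and 37.8 (19 h), 25.0 and 26.0 (22 h). Both 22 h values were under every other Ser2 value, and the change was -0.27 ± 0.09 (adjusted p = 0.0229). ZNF667 fell by 0.34 on the log2 scale (SE 0.12, adjusted p = 0.033), from 11.5 and 12.9 RPM to 10.5 and 8.69, and was not called with the trend over density removed (-0.27). ZNF677 and ZNF665, at -0.26 and -0.22, did not pass on the deposited scale.

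The 27 genes that fell with centring lay in 7 clusters. They were 7 of the 13 genes from ZNF101 to ZNF43 (ZNF93, ZNF737, ZNF430, ZNF738, ZNF493, ZNF100 and ZNF43), 7 of the 19 from ZNF565 to ZNF607, 5 of the 24 from ZNF175 to ZNF331, 3 of the 43 from ZNF628 to ZNF324, 2 of the 5 from ZNF730 to ZNF254, 2 of the 15 from ZNF653 to ZNF791 and 1 of the 13 from ZNF576 to ZNF180. None of the 12 from ZNF557 to ZNF562 did. The difference between clusters was not tested. With the trend over density removed, ZNF43, ZNF730 and ZNF726 were the only ones of the 27 still called. ZNF43 (ENSG00000198521, chr19:21804949-21852125, minus strand) had 19.5 and 20.3 RPM in Ser2 at 16 h and 17.4 and 17.5 at 22 h, and 32.1 and 30.0 against 18.1 and 26.1 in total RNAPII. Its 22 h libraries were lower in both antibodies.

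Change moved with read density. In the lowest of the 4 density classes, no gene of the set rose and 2 of 42 fell, with a median of -0.09. Of the other genes of that class 5.61% rose and 2.43% fell (median 0.02). In the second class 1 of 64 rose (1.56%, median 0.06), beside 29.2% of other genes (0.18). In the third 19 of 41 rose (46.3%, 0.24), beside 54.7% (0.29), and in the highest 6 of 8 (0.47), beside 67.3% (0.39). The set lay under the other genes in the lower 3 classes and above them in the highest, which held 8 of its genes. By span it lay under them in all 4 classes, with 0.14 against 0.29 below 10 kb and 0.02 against 0.15 from 50 kb. With the trend over density taken out of each pair, no gene of the set rose and 4 fell (2.58%), namely ZNF43, ZNF730, ZNF726 and ZNF497, against 4.17% and 3.19% of all genes. The median was then -0.10, against 0.00 over all genes.

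**Figure D3:**
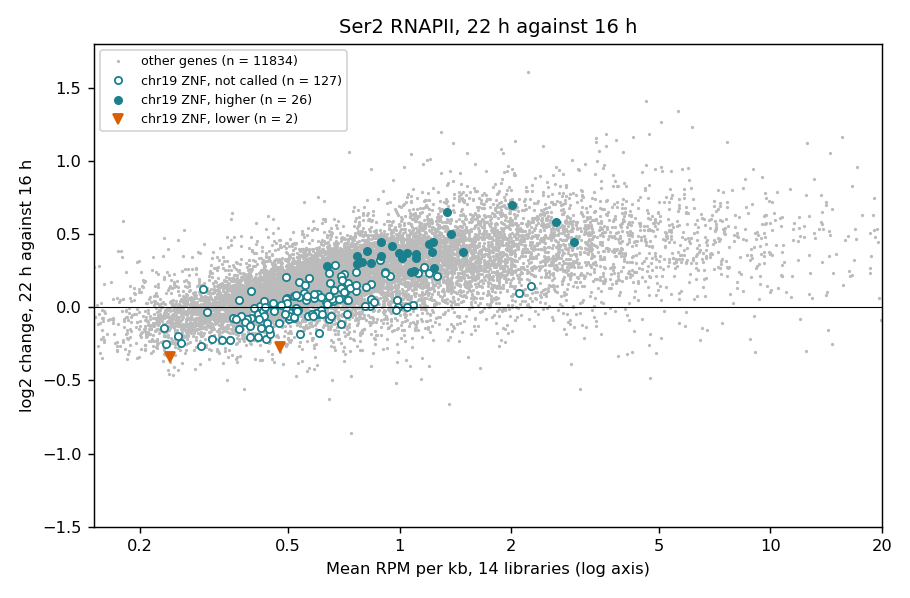
Fitted log2 change of Ser2 from 16 h to 22 h (y axis) against mean RPM per kb (x axis, log scale). Filled circles are zinc finger genes called higher (26), triangles those called lower (2), open circles those not called (127) and grey points other genes, and 111 genes lie outside the axes. Genes called higher sit toward the dense end, and the 2 called lower are in the lowest density class. Most open circles lie in the lower part of the grey band at their density.

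In total RNAPII the same comparison called no gene, in the set or over all 12031 genes tested (0%), by limma. Unadjusted p under 0.05 was reached by 0 genes upward and 1 downward in the set, and by 72 and 283 over all genes. edgeR called none, with 0 up and 7 down in the set at an unadjusted p under 0.05 and 453 up and 538 down over all genes (4.52% and 4.47% down). DESeq2 called 0 in the set and 25 in each direction over all genes, leaving 35 of the set without an adjusted p. The median of the set was -0.16, against -0.06 over all genes, and 39 of 155 estimates lay above the median gene. By pair the median was -0.34 against -0.26 with DMSO and 0.01 against 0.14 with ATRi. There 47 and 45 of the 155 lay above the median gene of the pair. ZNF730 had the lowest estimate, with 42.4 and 43.4 RPM (16 h), 43.2 and 40.1 (19 h), 22.6 and 30.8 (22 h) (log2 change -0.69 ± 0.24, not called). Both of its 22 h values lay under every other total RNAPII value. ZNF100 had 13.0 and 14.9 RPM at 16 h and 9.0 and 10.4 at 22 h (-0.51 ± 0.28). In the other direction ZNF304 had 3.25 and 3.48 RPM at 16 h and 3.41 and 4.72 at 22 h (0.23 ± 0.27), and ZNF283 and ZNF221 had 0.17 and 0.07. With the density trend taken out, 6 genes were lower and none higher (3.87% and 0%), against 4.51% and 3.92% of all genes. They were ZNF100, ZNF43, ZNF730, ZNF726, ZNF468 and ZNF813.

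The ratio of Ser2 to total RNAPII was compared over 7 pairs of one hour and treatment, after centring each library on its median gene. In the set 41 of 155 genes were higher in Ser2 (26.5%) and 24 lower (15.5%), against 30.1% and 24.5% of all genes. The median was 0.04 (all genes 0.01), whereas other named genes of chromosome 19 had -0.11, with 8.59% higher and 40.4% lower. The median of the set relative to all genes ran from -0.03 at 19 h with DMSO to 0.10 at 16 h with DMSO. Here too the values followed density. In the lowest density class 28 of 42 genes were higher in Ser2 (66.7%) and none lower, beside 80.9% of other genes higher. In the highest class all 8 were lower, beside 64.3% of other genes. The higher share was 12.3% without the 16 h libraries (21.5% of all genes) and 17.4% without those of 22 h (24.9% of all genes). On the deposited scale, where each Ser2 library has a lower median than its partner, 1.29% were higher and 79.4% lower, beside 3.79% and 78.7% of all genes. With the density trend taken out 3.23% were higher and 16.1% lower, against 14.9% and 17.1% of all genes.

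The lowest ratio was that of ZNF358 (ENSG00000198816, chr19:7515292-7521026, plus strand), which had 5.47 RPM in total RNAPII (14 h), then 7.70 and 8.46 (16 h), 10.5 and 11.3 (19 h), 4.95 and 9.32 (22 h). In Ser2 it had 3.47, 3.32 and 3.33, 5.86 and 6.75, and 2.79 and 4.06. Ser2 was under total RNAPII in each pair, and the centred ratio was -0.52 ± 0.06 (log2, SE; limma adjusted p = 0.000135). It stayed at -0.42 with the trend removed, although its whole span is shared with other genes. ZNF584 (-0.34 ± 0.05) and ZNF460 (-0.32 ± 0.05) were also lower under both treatments of the data, while ZNF581 (-0.35) and ZNF414 (-0.39) were not called with the trend removed.

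On the high side, ZNF792 (ENSG00000180884, chr19:34956354-34964049, minus strand) had 2.33 RPM in total RNAPII (14 h), then 2.19 and 3.01 (16 h), 4.07 and 4.28 (19 h), 3.73 and 2.72 (22 h). Its Ser2 values were 2.70, 3.21 and 3.33, 5.30 and 6.17, and 3.15 and 3.37. Ser2 exceeded total RNAPII in 6 of 7 pairs, and the centred ratio was 0.60 ± 0.11 (adjusted p = 0.000899). It was still called with the density trend removed (0.40, adjusted p = 0.0063). ZNF470, ZNF667, ZNF568 and ZNF506, at 0.61, 0.47, 0.41 and 0.39, were not. ZNF568, which in mice represses a placental transcript of Igf2, had nearly level occupancy, at 22.7 to 29.5 RPM in total RNAPII and 24.1 to 30.2 in Ser2.

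**Figure D4:**
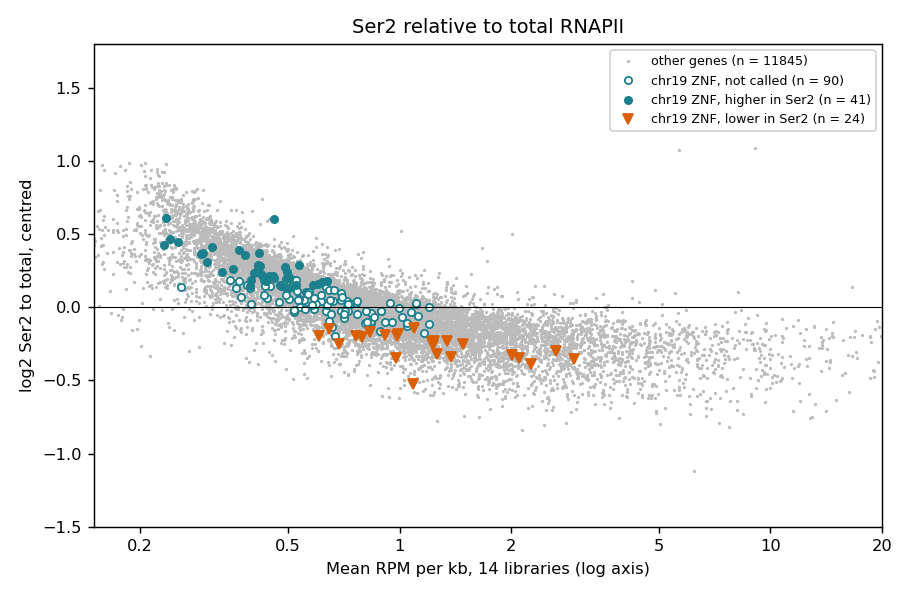
Centred log2 ratio of Ser2 to total RNAPII (y axis) against mean RPM per kb (x axis, log scale). Filled circles are zinc finger genes higher in Ser2 (41), triangles those lower (24), open circles those not called (90) and grey points other genes, and 111 genes lie outside the axes. The ratio declines with density in the set and in the other genes, and the 8 genes of the set in the highest density class are all lower in Ser2.

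Comparing ATRi with DMSO called no gene in total RNAPII, in Ser2 or in the difference between them. Over all genes the calls were 0 of 12031, 0 of 11989 and 0 of 12013 (0% each) by limma. Without the 19 h libraries, limma called ZNF581 higher in Ser2 (0.37 on the log2 scale, 0.645% of the set) beside 7.09% of all genes. edgeR called 0 in all 3 comparisons, and DESeq2 too, although DESeq2 left 154 of the 155 without an adjusted p in Ser2. In total RNAPII no gene of the set had an unadjusted p under 0.05, and 204 genes did over all genes, all upward. In Ser2, 20 of the set did, all upward (12.9%), against 21.9% of all genes upward. For the difference there were 0 in the set, and 4 up and 5 down over all genes. At the same unadjusted level edgeR had 0 in the set in total RNAPII (27 up and 24 down over all genes), 3 up and 1 down in Ser2 (522 and 712) and 0 for the difference (17 and 10). Median log2 ATRi to DMSO ratios in total RNAPII were 0.05 at 16 h (all genes 0.05), 0.00 at 19 h (-0.03) and 0.45 at 22 h (0.50). In Ser2 they were 0.04 (0.06), 0.10 (0.06) and 0.12 (0.16). The 22 h DMSO library of total RNAPII had 42.8% of its reads in genes and the ATRi library 57.4%, and the part of this in the 22 h ratio was not tested.

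**Figure D5:**
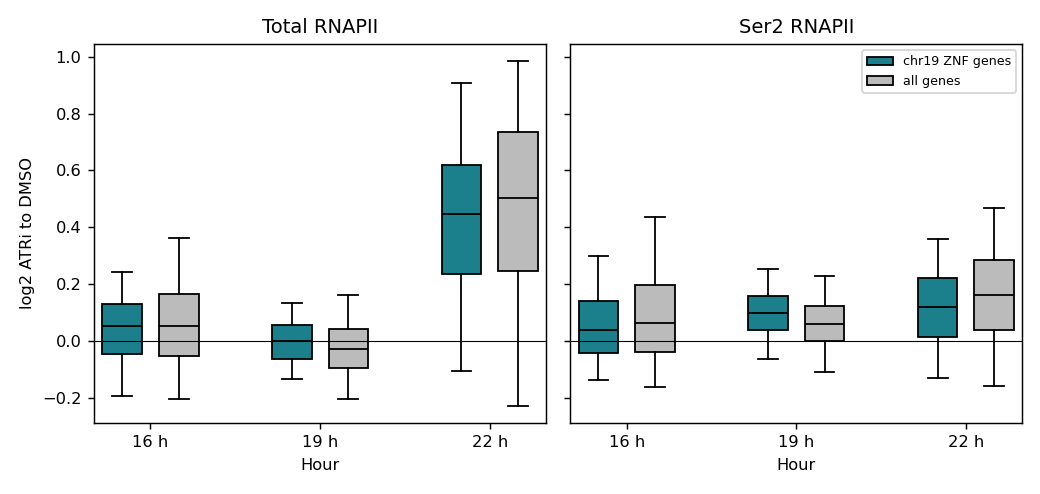
Log2 ratio of ATRi to DMSO at each hour (x axis) for total RNAPII (left) and Ser2 (right), for the 155 zinc finger genes and for all genes. Boxes are quartiles with the median, and whiskers run from the 5th to the 95th percentile over genes. In total RNAPII the boxes of the set straddle 0 at 16 h and 19 h and stand at a median of 0.45 at 22 h, as all genes do at 0.50.

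Agreement over the 3 hours was counted as a description. In total RNAPII, 48 of 155 genes (31.0%) were higher with ATRi at all 3 hours, against 18.0% of all genes, and 1 (ZNF418) was lower at all 3, against 1.31%. Centred on the median gene of each hour, 16 (10.3%) were higher, against 8.33%, and 14 (9.03%) lower, against 6.96%. In Ser2, 64 (41.3%) were higher, against 42.6%, and 2 (ZNF568 and ZNF665) lower, against 3.44%. With centring 15 (9.68%) were higher, against 16.0%, and 17 (11.0%) lower, against 16.9%.

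Single genes illustrate the scale. ZNF302 (chr19:34677639-34686397, plus strand) had the highest estimate in total RNAPII, with 13.0 RPM for DMSO and 15.7 for ATRi (16 h), 21.4 and 21.8 (19 h), 8.89 and 18.4 (22 h) (log2 0.43 ± 0.23; limma adjusted p = 0.767). The ATRi library was above the DMSO library at each hour, and the gap was widest at 22 h. ZNF439, first by its smallest hourly difference, had 13.0 and 15.4, 12.8 and 14.4, and 12 and 14.8 (0.23 ± 0.23). ZNF649, ZNF132 and ZNF100 had 0.21, 0.26 and 0.16, and ZNF418 had -0.12 ± 0.22. In Ser2, ZNF581 had 12.9 and 17.6 RPM (16 h), 32.1 and 36.6 (19 h), 18.5 and 23.2 (22 h) (0.31 ± 0.08; adjusted p = 0.0845), the lowest adjusted p of the set. ZNF784, ZNF557 and ZNF414 had 0.27 ± 0.09, 0.28 ± 0.08 and 0.24 ± 0.09, and ZNF665 and ZNF568 had -0.04 ± 0.09 and -0.09 ± 0.08. The ATRi effect in Ser2 minus that in total RNAPII was -0.23 for ZNF607, -0.15 for ZNF714, -0.18 for ZNF569 and -0.16 for ZNF665, and 0.19 for ZNF570 and 0.04 for ZNF829, with an adjusted p of 1.00 for each.

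The partners that KRAB proteins use were read from a list of 26 genes, of which 23 were measured. Comparing ATRi with DMSO called none of the 23 in either antibody, with medians of 0.19 in total RNAPII and 0.10 in Ser2. Between 16 h and 22 h Ser2 rose over 12 of the 23 and fell over none on the deposited scale (median 0.26), beside 39.0% of all genes higher. TRIM28, the corepressor, rose by 0.52 ± 0.11 (log2, SE), SETDB1 by 0.34 ± 0.10, CBX5 by 0.62 ± 0.09 and SUV39H1, another H3K9 methyltransferase, by 0.70 ± 0.11. CBX3 (0.18 ± 0.11) and UHRF1 (-0.08 ± 0.09), a maintenance methylation factor, did not pass. The median change over all genes was 0.21. Outside the zinc finger set 54.7% of genes rose in the third density class and 67.3% in the highest, where TRIM28 and CBX5 lay. The part of density in the partner changes was not tested. TRIM28 had 2.77 RPM per kb and lay above the density of all zinc finger genes of the set except ZNF581. In the Ser2 to total ratio 7 of the 23 were higher and 5 lower, with a median of -0.02. Over all genes 30.1% were higher and 24.5% lower.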

How the data were processed

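ChIP-seq of total and Ser2 RNAPII was read from 1 deposited table of RPM per gene over 14 libraries. Bowtie2 2.3.3.1, SAMtools 1.4 and the hg38 build are named per the submitters' processing notes. How the authors counted, chose genes, removed duplicates or placed reads that fit several near-identical zinc finger genes, and whether input was subtracted, is not given in the sources used here. The deposited RPM are per 1000000 library reads and not per length. They were whole multiples of 1 read (100.0% within 0.01 reads), so whole reads were recovered.

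Symbols were assigned by position against RefSeq (GRCh38.p14): a Jaccard index of at least 0.8, or 0.5 with an end within 100 bp, on the same strand where RefSeq's promoter table gave one. This named 10725 nuclear genes. Members and lists were chosen with earlier results of these data known.

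limma 3.58.1 (R 4.3.3, eBayes with trend, two-sided) was fitted on log2(RPM + 0.5) for all nuclear genes whose mean over the fitted libraries reached 1 RPM, with Benjamini-Hochberg adjustment over all of them at 0.05. A fold change on this scale is understated for low genes. ATRi against DMSO used hour as a block, and 22 h against 16 h used treatment as a term. Ser2 against total used the pair of hour and treatment as a block, centred on the median gene. The difference of the ATRi effects was fitted on the treated libraries of both antibodies. It used antibody by hour as a block, a term for ATRi and a term for ATRi in Ser2. Alternatives were edgeR 4.0.16 and DESeq2 1.42.0 on the recovered reads, other pseudocounts and filters, centring, removal of a loess trend (span 0.3) over density, other member sets and leaving out an hour. The fits were also run on simulated counts with known changes larger than the fitted changes of the set and with no density trend. That run does not show how the fits perform on the smaller changes and density trends here.

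Named genes were, per comparison, up to 6 called genes in each direction by adjusted p, filled to 4 with genes whose pairs all had that sign, ranked by their smallest difference, then the 6 densest, the 3 least dense and a list of members with known roles. ZNF14, ZNF726 and the genes named in counts were named after their values were seen. Mitochondrial rows were left out.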

Additional observations from a re-analysis of the deposited data

How the results depend on the processing

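Over the alternatives run, 224 of 243 summary values of the zinc finger genes stayed close to the reported one (a share within 1.5 times, or a relative median that moved by less than its SD over pairs). This count is a weak check. For ATRi and for total RNAPII over time the reported shares were 0 and mostly stayed 0. Centring cannot move a relative median. The ATRi tolerances (0.044 in total RNAPII, 0.041 in Ser2) exceeded the relative medians in size (-0.010 and -0.014), so a value of the other sign could count as close. Of 473 values of named genes, 437 kept their sign and side of the threshold, 24 lost and 8 gained it. The median of the set relative to all genes (log2) ran from -0.17 to -0.10 for Ser2 at 22 h against 16 h, from -0.12 to -0.10 for total RNAPII there, from -0.05 to 0.05 for Ser2 against total, and from -0.03 to 0.02 for ATRi, where 2 values changed sign in each antibody and 1 in their difference. For Ser2 at 22 h against 16 h, the percent of the set called higher and lower follows, with that of all genes in brackets. It was 1.94 and 17.4 with median centring (10.2 and 10.5) and 0 and 2.58 with the density trend removed (4.17 and 3.19). With edgeR it was 1.94 and 13.5 (9.68 and 7.60). With DESeq2 it was 0.840 and 6.72 over the 119 genes with an adjusted p. Counted over every gene fitted, DESeq2 gave 0.645 and 5.16 (5.20 and 4.98). The relative median there was -0.10 with the trend removed, -0.17 with edgeR and -0.17 over genes sharing under 5% of their span. In total RNAPII, 3.87% were lower with the trend removed. For Ser2 against total, 1.29% were higher and 79.4% lower on the deposited scale, 3.23% higher with the trend removed (relative median -0.051), 12.3% without 16 h and 17.4% without 22 h. ZNF667 turned to -0.027 with the trend removed and ZNF850 to -0.081 on the deposited scale. For ATRi in Ser2, 0.645% of the set passed without 19 h, beside 7.09% of all genes. Apart from the construction of each alternative, the causes were not tested. No paired analysis by replicate number could be run, since each group held 1 library. The terms of each fit are given with the processing. Assigning symbols by identifier and a split by KRAB box were not run. A looser position match, which added 13 genes, and a stricter one were chosen after seeing the data. With 1 library per group, precision rests on the spread between hours and treatments, and the least covered libraries hold 186 reads in the median gene of the set.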
